A study of Rattus norvegicus with 24 samples.

Results

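Autophagy wraps part of the cytoplasm in a double membrane and delivers it to the lysosome. Ulk1 and Atg13 belong to the kinase complex that starts the process, Becn1 to the lipid kinase complex that marks the growing membrane, and the remaining Atg proteins to the reactions that attach Atg12 to Atg5 and LC3 to lipid. In blood leukocytes the pathway is known for the removal of damaged organelles and of engulfed microbes. The set described here consisted of 10 genes of this core machinery (Ulk1, Atg13, Becn1, Atg7, Atg10, Atg12, Atg5, Atg16l1, Atg3 and Atg4b), and its members were all probes that carried one of these gene names on a rat gene expression array. There were 14 such probes, printed as 35 spots, of 30367 probes and 58717 spots that were not controls. Atg13, Atg10, Atg5 and Atg16l1 had 2 probes each, called here the brighter and the dimmer probe by their signal. Atg13 and Atg10 entered the set because the study listed them among the genes that differed between beta-glucan-fed and control-fed rats after LPS. Their values in every comparison that involves an LPS group are therefore given as a description, without a test.

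Blood RNA was measured on 24 two-color arrays, 4 single male Sprague Dawley rats in each of 6 groups. All rats were 8 weeks old at the start and ate a semi-synthetic diet for 6 weeks. C-G0 received the plain diet, C-G1 the diet with high-molecular-weight and C-G2 that with low-molecular-weight oat beta-glucan, and LPS-G0, LPS-G1 and LPS-G2 received the same 3 diets. The C groups were injected 2 times with saline and the LPS groups 2 times with lipopolysaccharide (LPS, 10 mg per kg body weight), a bacterial cell wall component that triggers inflammation. Every array carried the blood RNA of 1 rat against a common reference pooled from rats of the experiment. For LPS-G0 replicates 3 and 4 the titles name the LPS injection while a further label field calls them controls, so the main values that rest on LPS-G0 are also given without them. The arrays lay on 3 slides of 8, each with all 6 groups. In the Cy3 channel 7788 to 15389 probes gave a signal well above background, depending on the array. Of 58 marker genes of blood cells 57 had a probe, and 39 of them were above background on all 24 arrays, including 9 of 10 erythroid and 7 of 7 platelet genes. In whole blood, fewer cells of a type and less RNA per cell cannot be told apart.

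The 4 probes of Atg13 and Atg10 are shown because the results turn on how far the probes of these genes could be measured. These are the first 30 bases of each 60-base probe, 5′ to 3′, from the array's own annotation.
Atg13 brighter probe: ggcttacaagctggattggttcccttttga
Atg13 dimmer probe: aaagacgacattcttccaatggacttgggg
Atg10 brighter probe: tgtgtgcttgctttagtgtacaatgtgtga
Atg10 dimmer probe: ggaggacgagttctttggagaagaaagctt
On the rn4 assembly the brighter Atg13 probe lies on chromosome 3 from 76055701 to 76055760 on the minus strand, and the dimmer one from 76059568 to 76059627, 3867 bases apart. The brighter Atg10 probe lies on chromosome 2 from 21076790 to 21076849 and the dimmer one from 21358139 to 21358198, both on the minus strand and 281349 bases apart. The array files name the gene of each probe but no exon or untranslated region. Read on the printed strand, all 3 frames of the 60 bases of the brighter Atg10 probe hold a stop codon (TAA, TAG or TGA), and 0 frames of the dimmer one do. For Atg13 a stop codon stands in 2 frames of the brighter and in 1 frame of the dimmer probe.

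Detection in the Cy3 channel, which the sample labels assign to the rat RNA, separated the probes first. A probe counted as detected on an array when at least 0.5 of its spots were well above background. Ulk1, Atg3 and the brighter probe of Atg16l1 were detected on all 24 arrays. The brighter probe of Atg5 was detected on 22 arrays, Becn1 on 20 and Atg7, the enzyme that activates both Atg12 and LC3, on 19. The brighter probes of Atg13 and Atg10 were detected on 16 and 14 arrays, although both were detected in the Cy5 reference on all 24. Atg4b, the protease that trims LC3, reached 11 arrays, and Atg12, the protein joined to Atg5, reached 3. The dimmer probes were near the limit of the array, with 2 arrays for Atg13, 2 for Atg16l1, 0 for Atg10 and 0 for Atg5. Tests were made on probes detected on all 4 arrays of at least 1 group in the model, which left 7 member probes in the model of 16 arrays and 8 in that of 24. The other 6 probes passed this filter in neither model.

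**Figure D1:**
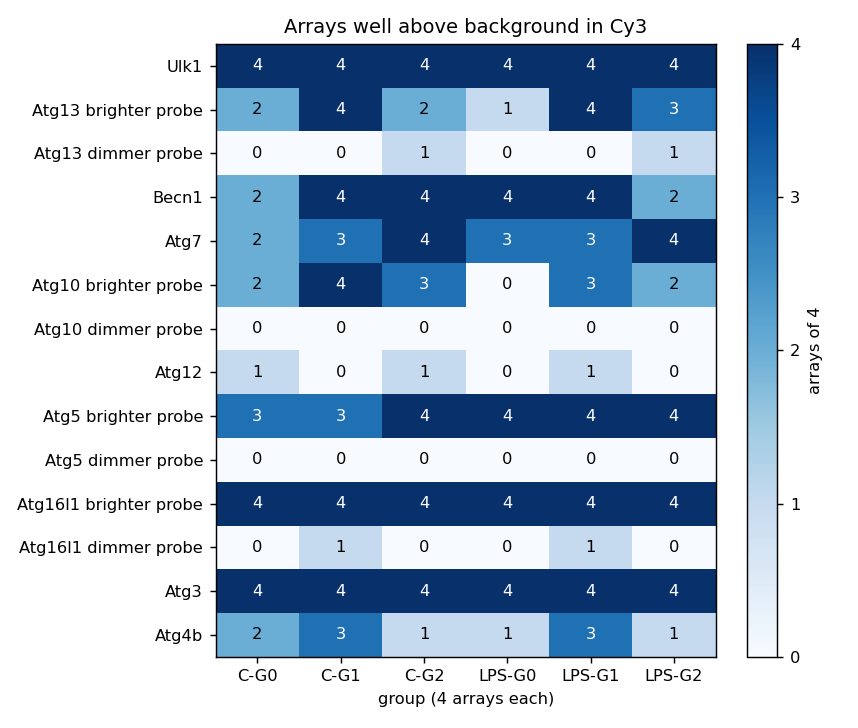
Number of arrays, of 4 in each group, on which each of the 14 probes was well above background in Cy3; rows are probes, columns are groups, and darker cells are higher counts. Ulk1, Atg3 and the brighter Atg16l1 probe are at 4 in every group, and the brighter Atg10 probe runs from 0 in LPS-G0 to 4 in C-G1.

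Detection of the brighter Atg13 probe was uneven over the groups. It was detected on 4 arrays each of C-G1 and LPS-G1, on 3 of LPS-G2, on 2 each of C-G0 and C-G2 and on 1 of LPS-G0. The brighter Atg10 probe was detected on 4 arrays of C-G1, 3 each of C-G2 and LPS-G1, 2 each of C-G0 and LPS-G2 and 0 of LPS-G0. Both probes were thus detected least in LPS-challenged rats on the plain diet. By slide, the brighter Atg13 probe was detected on 4, 6 and 6 of 8 arrays and the brighter Atg10 probe on 4, 5 and 5. The part of array brightness in these counts was not tested.

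Levels below are log2 ratios of Cy3 (blood RNA) over Cy5 (reference), so that 0 equals the reference and 1 means a doubled signal. The direction follows the sample labels. The methods of the study name the opposite dyes, but rat RNA should vary more between arrays than 1 reference does, and over 7086 probes the median within-group SD was 0.383 in Cy3 and 0.257 in Cy5, larger in Cy3 for 95.2% of probes. Ratios of different genes are not compared with each other.

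Atg13, the adaptor of the Ulk1 kinase complex, had its highest values in LPS-G1 and its lowest in LPS-G0. The brighter probe stood at 0.44, 0.52, 1.19 and 0.73 in LPS-G1 replicates 1 to 4. In LPS-G0 it stood at -0.46, -1.09, -0.94 and -0.35. Every LPS-G1 array thus lay above every LPS-G0 array, and 3 of the 4 LPS-G0 arrays were not detected. LPS-G2 had -0.82, -0.02, -0.20 and -0.14. The means of the 3 groups without LPS lay below LPS-G1 and above LPS-G0, with -1.01, -0.08, 0.09 and 0.18 in C-G0, with 0.01, 0.30, 0.36 and 0.06 in C-G1 and with 0.31, -0.15, -0.25 and 0.39 in C-G2. In order, the group means were 0.72 ± 0.34 in LPS-G1 (SD, n = 4 here and below), 0.18 ± 0.18 in C-G1, 0.08 ± 0.32 in C-G2, -0.21 ± 0.55 in C-G0, -0.29 ± 0.36 in LPS-G2 and -0.71 ± 0.36 in LPS-G0. Among neighbours in this order, LPS-G1 and C-G1 differed by more than the larger of their SDs, and so did LPS-G2 and LPS-G0.

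The difference of LPS-G1 from LPS-G0 in the brighter Atg13 probe was 1.43 on the log2 scale, or 2.70-fold. Within slides it was 1.22, 1.80 and 1.08, and without LPS-G0 replicates 3 and 4 it was 2.82-fold. LPS-G2 differed from LPS-G0 by 0.42 and LPS-G0 from C-G0 by -0.51, or 0.48 and -0.57 without these replicates. LPS-G1 differed from C-G1 by 0.54, also without overlap in the mean of the probe's spots, and LPS-G2 from C-G2 by -0.37. The size of the first difference depended on which spot was read. The first of the probe's 2 spots gave 2.12, with LPS-G1 from 0.41 to 2.85 and LPS-G0 from -1.82 to 0.10. The second spot gave 0.74, and the groups overlapped, with LPS-G1 from -0.47 to 0.63 and LPS-G0 from -1.03 to -0.07. LPS-G1 and C-G1 overlapped on each spot read alone, with C-G1 from -0.14 to 0.58 on the first and from -0.28 to 0.16 on the second. On the array with the highest value, LPS-G1 replicate 3, the spots read 2.85 and -0.47, a gap of 3.31. With a different background correction (normexp with an offset of 50, then loess) the difference was 0.49.

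Spots of the same probe are repeats of 1 hybridization and show how well each ratio was read. Over the 24 arrays, the spots of the brighter Atg13 probe correlated with r = 0.06, and on 5 arrays they were more than 1 apart. For the brighter Atg10 probe r was 0.58, with 4 such arrays. The spots of Ulk1 correlated with r = 0.91 and those of the brighter Atg16l1 probe with r = 0.83, and on 0 arrays were they more than 1 apart. Becn1, Atg7 and the brighter Atg5 probe lay between, at 0.51, 0.47 and 0.76. These r values describe 24 arrays that share the reference, the slides and the dye balance.

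The second probe of Atg13 did not give the same order of arrays. Across 24 arrays the brighter and the dimmer probe correlated with r = 0.07, and with r = -0.34 after the group means were removed. The dimmer probe differed in the same direction in 5 of 7 comparisons between groups, but in LPS-G1 and LPS-G0 it was detected on 0 of 4 arrays each. It was detected on C-G2 replicate 2 and on LPS-G2 replicate 1. LPS-G2 replicate 1 was the single array on which both probes were detected, and there the dimmer probe had a Cy3 signal of 1019 against 40.8 for the brighter one. Its Cy5 signal on that array was 1280, and on the other 3 LPS-G2 arrays its Cy3 signal was 14.4 to 26.8 and not detected.

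Atg10, the enzyme that transfers Atg12 to Atg5, also had its lowest values in LPS-G0. The brighter probe stood at -1.92, -1.65, -0.58 and -1.73 there, all not detected. LPS-G1 had -0.64, 0.57, -0.80 and -0.15, and LPS-G2 had -0.50, -0.23, -0.37 and -0.72. One LPS-G0 array, replicate 3, overlapped with both. C-G0 had -1.15, -0.21, -0.16 and -0.47, C-G1 had -0.22, 0.41, 0.67 and -0.50, and C-G2 had -1.57, -0.03, -0.49 and -0.20. The means ran from 0.09 ± 0.54 in C-G1 over -0.26 ± 0.62 in LPS-G1, -0.45 ± 0.21 in LPS-G2, -0.50 ± 0.46 in C-G0 and -0.57 ± 0.69 in C-G2 to -1.47 ± 0.60 in LPS-G0. Among neighbours in this order, C-G2 and LPS-G0 were apart by more than the larger SD.

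Since the brighter Atg10 probe was not well above background on any LPS-G0 array, its signal there gives only a limit. The normalised Cy3 signal alone was set against the lowest signal above background on each LPS-G0 array, or the probe's own where that was higher. By this measure LPS-G1 was 1.92-fold, LPS-G2 1.60-fold and C-G0 1.58-fold higher than LPS-G0. Undetected arrays of the higher groups entered with their own signal, so these folds are not strict lower limits. Over the alternative settings, the log2 difference from LPS-G0 was as small as 0.43 for LPS-G1 and 0.35 for LPS-G2. That of LPS-G0 from C-G0 was as small as -0.41. Without LPS-G0 replicates 3 and 4 the folds were 2.18, 1.82 and 1.80. Neutrophil genes differed in the same direction in LPS-G2 vs. LPS-G0, where 5 of 7 tested were higher at an unadjusted p under 0.05 and 0 at an adjusted one. Their part was not tested. The dimmer Atg10 probe was detected on 0 of 24 arrays and correlated with the brighter one with r = 0.20.

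**Figure D2:**
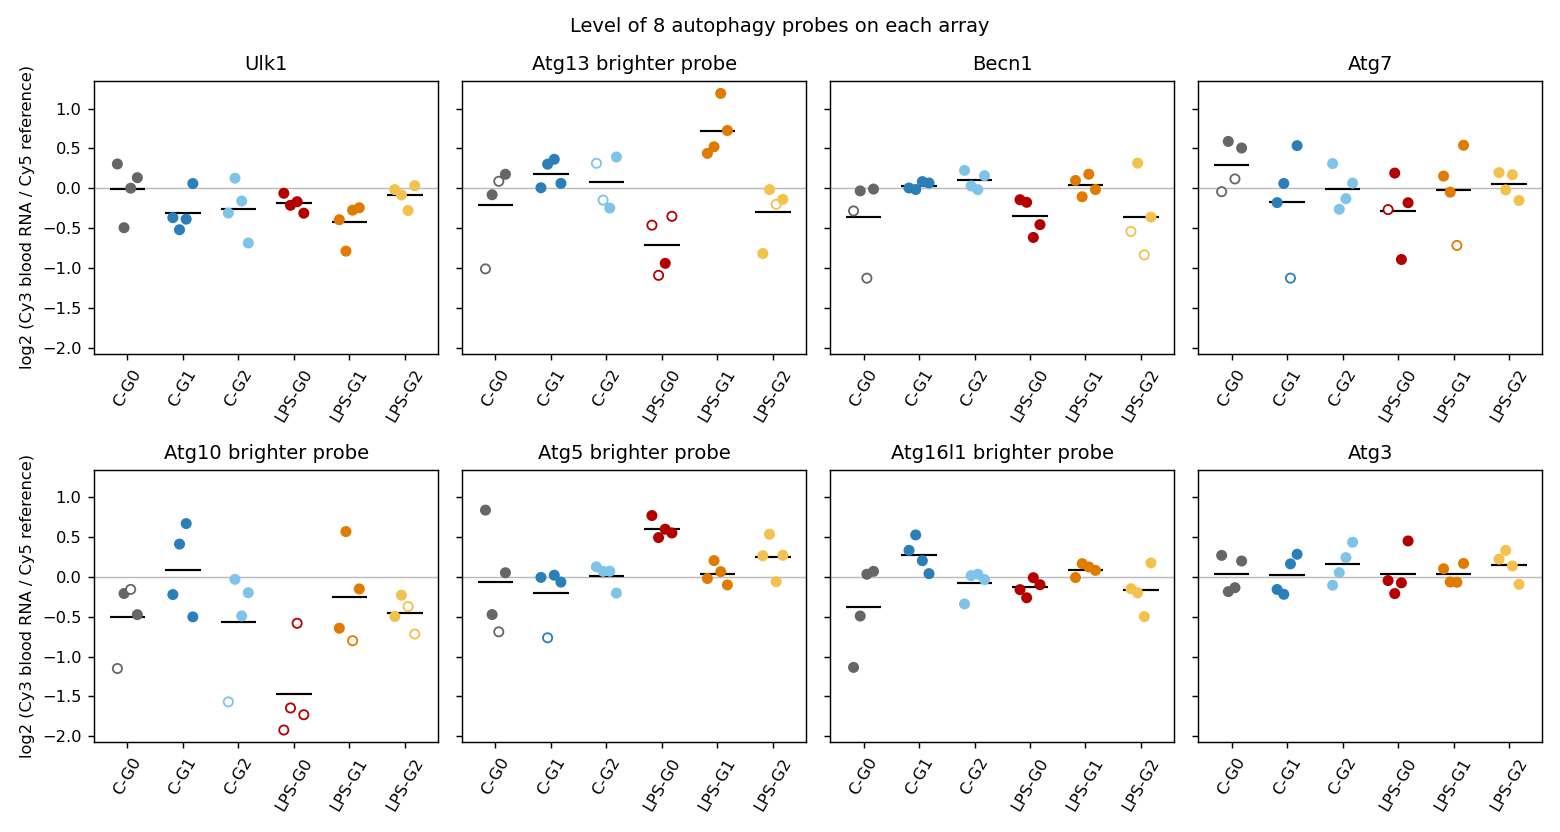
Log2 ratio of Cy3 over Cy5 on every array for the 8 probes that were tested, by group; points are arrays, filled where Cy3 exceeded background clearly and open elsewhere, and horizontal lines are group means of 4 arrays. Atg13 is highest in LPS-G1 (0.44 to 1.19), all LPS-G0 points of Atg10 are open, and Atg3 stays between -0.22 and 0.45.

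In rats without LPS the values of both genes could be set against C-G0. The brighter Atg13 probe was 0.39 (SE 0.25) higher in C-G1 than in C-G0, with an adjusted p of 0.286, and 0.28 (SE 0.25) higher in C-G2, with an adjusted p of 0.679. The 95% intervals were -0.13 to 0.91 and -0.23 to 0.80, so a doubling of the measured ratio lay outside both. The probe was detected on only 2 of 4 arrays each of C-G0 and C-G2. The intervals therefore set no bound on a change of the transcript itself. The brighter Atg10 probe differed by -0.07 (SE 0.36) in C-G2, with an adjusted p of 0.959 and an interval of -0.81 to 0.66. It differed by 0.59 in C-G1, but it passed the filter on dim probes only through C-G1, where it was highest, and that difference is given as a value. C-G0 replicate 1 was the lowest array of its group for both probes and was not detected for either. Without it, the C-G1 difference was 0.12 for Atg13 and 0.37 for Atg10, and C-G2 differed by 0.02 and -0.29.

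Of the other members, Ulk1, Becn1, Atg7, Atg3 and the brighter probes of Atg5 and Atg16l1 were tested in every comparison, and the adjusted p was never under 0.05 for any of them. The tool was limma, with Benjamini-Hochberg adjustment over all 10315 or 10708 probes tested. In LPS-G0 vs. C-G0, 0 of 6 probes passed, against 0.00969% of all probes. In LPS-G1 vs. LPS-G0, 0 of 6 passed, against 8.93%. LPS-G2 vs. LPS-G0 also had 0 of 6, where 0% of all probes passed. C-G1 vs. C-G0 and C-G2 vs. C-G0, with Atg13 and Atg10 included, had 0 of 8 each, against 0.028% in both. The 8 of C-G1 vs. C-G0 count the brighter Atg10 probe, which passed the filter only through C-G1. Here and below, no result is drawn from that probe in this comparison. LPS-G1 vs. C-G1 and LPS-G2 vs. C-G2 had 0 of 6 each, against 0.00934% and 0%. At an unadjusted p under 0.05, the counts in these 7 comparisons were 2, 1, 0, 1, 1, 0 and 0, and the shares of all probes were 15.2%, 26.9%, 8.24%, 28%, 13.2%, 2.81% and 1.09%. The arrays of both groups did not overlap for 3 of 6 tested member probes in LPS-G1 vs. LPS-G0, against 21.9% of all probes, and for 0 tested member probes in each of the other 6 comparisons, where the shares of all probes were 5.04% (LPS-G0 vs. C-G0), 10.5% (LPS-G2 vs. LPS-G0), 7.04% (C-G1 vs. C-G0), 2.62% (C-G2 vs. C-G0), 2.73% (LPS-G1 vs. C-G1) and 1.07% (LPS-G2 vs. C-G2).

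Atg5, the protein to which Atg12 is attached, had its highest mean in LPS-G0. The brighter probe stood at 0.77, 0.49, 0.60 and 0.55 in LPS-G0, a mean of 0.60 ± 0.12. C-G0 was spread over 0.84, -0.47, -0.69 and 0.05, and LPS-G1 stood at -0.02, 0.21, 0.07 and -0.10. LPS-G0 overlapped with C-G0 through C-G0 replicate 1 alone, and lay wholly above LPS-G1. The difference of LPS-G0 from C-G0 was 0.67 (SE 0.25), with an unadjusted p of 0.0144 and an adjusted p of 0.245 in limma, and an exact two-sided permutation p of 0.143. Without C-G0 replicate 1 it was 0.97 with an adjusted p of 0.00697, past the threshold. In that setting 11% of all probes passed, against 0.00969% with all arrays. Without C-G0 replicate 3 the Atg5 difference was 0.46 with an adjusted p of 0.526. Without LPS-G0 replicates 3 and 4 it was 0.70, with an adjusted p of 0.544.

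From LPS-G0 to LPS-G1 the brighter Atg5 probe differed by -0.57 (SE 0.25), with an adjusted p of 0.154. The exact permutation p was 0.0286, the smallest that 4 against 4 arrays can give, and it follows from the lack of overlap alone. The difference had the same sign on all 3 slides, at -0.65, -0.46 and -0.65. It did not pass with slide as a block (adjusted p = 0.238), when any single array was left out (0.175 to 0.310) or without LPS-G0 replicates 3 and 4 (-0.59, adjusted p = 0.326). It passed in a model of only the 8 arrays compared, at an adjusted p of 0.0216, and with array weights, at 0.0122, where 15.2% and 28.2% of all probes passed. LPS-G2 stood at 0.27, 0.54, -0.06 and 0.27 and differed from LPS-G0 by -0.35, with an adjusted p of 0.665, or by -0.38 without LPS-G0 replicates 3 and 4, with an adjusted p of 0.818. The dimmer Atg5 probe, detected on 0 arrays, correlated with the brighter one with r = 0.09. Cytotoxic and natural killer cell genes differed in the same direction as Atg5 in LPS-G0 vs. C-G0. All 6 of 6 tested had an unadjusted p under 0.05, 0 an adjusted one, and the mean log2 ratio of the 4 detected throughout ran from -0.08 to 0.70 in LPS-G0 and from -1.53 to 0.01 in C-G0. Their summed Cy3 signal ran from 5861 to 10385 in LPS-G0 and from 2793 to 7095 in C-G0, and all 8 genes of the list were detected on at least 1 array. Their part in the Atg5 values was not tested.

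Atg7 differed in the direction opposite to Atg5 after LPS. C-G0 stood at -0.04, 0.59, 0.12 and 0.51, and LPS-G0 at -0.27, 0.19, -0.89 and -0.18. The probe was not detected on C-G0 replicates 1 and 3 and on LPS-G0 replicate 1. The groups overlapped, and the difference of -0.58 (SE 0.25) had an adjusted p of 0.297 and an exact permutation p of 0.0857. Without LPS-G0 replicates 3 and 4 it was -0.33, with an adjusted p of 0.747. Neutrophil genes differed in the same direction as Atg7. Of 7 tested, 3 were lower and 1 higher in LPS-G0 at an unadjusted p under 0.05, 0 at an adjusted one, and their median was -0.53. The mean log2 ratio of the 6 detected throughout ran from -0.56 to -0.15 in LPS-G0 and from -0.20 to 0.23 in C-G0, with summed Cy3 signals of 10485 to 18192 and 14168 to 20764, and 1 of the 10 genes of the list was detected on no array. Their part in the Atg7 values was not tested.

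Atg16l1, which binds the Atg12-Atg5 pair and places it on the growing membrane, had its highest mean in C-G1 and its lowest in C-G0. C-G1 stood at 0.33, 0.53, 0.20 and 0.04 and C-G0 at -1.14, -0.49, 0.03 and 0.07. The difference of 0.66 (SE 0.20) had an unadjusted p of 0.0036, an adjusted p of 0.108 and an exact permutation p of 0.0571. It rested largely on slide 1, with 1.15 there, 0.33 on slide 2 and -0.03 on slide 3. Without C-G0 replicate 1 it was 0.41 with an adjusted p of 0.471, and without C-G0 replicate 4 it was 0.81 with an adjusted p of 0.0224. In the latter setting 9% of all probes passed, against 0.028% with all arrays. The erythroid genes differed in the other direction. Of 10 tested, 5 had an unadjusted p under 0.05, against 28% of all probes, and 0 an adjusted one. All 5 were lower in C-G1, and the mean log2 ratio of the 9 detected throughout ran from -1.34 to -0.27 in C-G1 and from -0.28 to 0.29 in C-G0. Their summed Cy3 signal was 597563 to 874846 in C-G1 and 688837 to 1630190 in C-G0. Cytotoxic and natural killer cell genes differed in the same direction as Atg16l1, with a median of 0.62. Of 6 tested, 2 were higher and 0 lower at an unadjusted p under 0.05, and 0 passed at an adjusted one. The part of both lists in the Atg16l1 values was not tested.

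Becn1, a subunit of the lipid kinase complex, was held tightly in C-G1, C-G2 and LPS-G1 and spread in the other groups. It was detected on 2 of 4 arrays each in C-G0 and LPS-G2 and on all 4 in the other groups. C-G2 stood at 0.22, 0.03, -0.02 and 0.16 and C-G0 at -0.28, -0.03, -1.13 and -0.01, with C-G0 replicates 1 and 3 not detected. The difference of 0.46 (SE 0.22) had an adjusted p of 0.368 and an exact permutation p of 0.0571, and it was 0.21 without C-G0 replicate 3. In this comparison 4 of 6 cytotoxic and natural killer cell genes were higher at an unadjusted p under 0.05 and 0 at an adjusted one. The mean log2 ratio of the 4 detected throughout ran from -0.37 to 0.31 in C-G2 against -1.53 to 0.01 in C-G0, and their summed Cy3 signal from 6352 to 10140 in C-G2. Their part in the Becn1 values was not tested. LPS-G1 stood at 0.10, -0.11, 0.18 and -0.02 and LPS-G0 at -0.14, -0.18, -0.62 and -0.46.

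Every LPS-G1 array of Becn1 was thus above every LPS-G0 array, and the same held for the brighter Atg16l1 probe, with -0.01, 0.17, 0.13 and 0.08 in LPS-G1 and -0.16, -0.26, -0.01 and -0.10 in LPS-G0. With Atg5 in the other direction, these were the 3 of 6 tested probes whose groups did not overlap, beside Atg13, which is described without a test. The differences were 0.39 (SE 0.25) for Becn1 and 0.22 (SE 0.22) for Atg16l1, with adjusted p-values of 0.321 and 0.510 and an exact permutation p of 0.0286 for each. Groups of 4 that do not overlap always give this permutation p. It thus only restates the lack of overlap, which 21.9% of all probes also had in this comparison. Without LPS-G0 replicates 3 and 4 they were 0.20 and 0.30, with adjusted p-values of 0.741 and 0.563. Of 10 erythroid genes, 2 had an adjusted p under 0.05 in this comparison, both lower in LPS-G1. The mean log2 ratio of the 9 detected throughout ran from -0.59 to 0.09 in LPS-G1 and from 0.01 to 0.10 in LPS-G0. The summed Cy3 signal of these 9 was 807104 to 1013460 in LPS-G1 and 815978 to 1209200 in LPS-G0. Of the 5 monocyte genes tested, 1 had an unadjusted p under 0.05, against 26.9% of all probes, and was higher in LPS-G1, and 0 had an adjusted one. The mean log2 ratio of the 4 monocyte genes detected throughout, of 8 in the list, ran from -0.07 to 0.21 in LPS-G1 and from -0.44 to -0.15 in LPS-G0. Their summed Cy3 signal was 64111 to 75642 in LPS-G1 and 38860 to 55703 in LPS-G0, without overlap. The part of the erythroid and monocyte genes in the member values, Atg13 and Atg10 included, was not tested.

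Ulk1, the kinase that starts the process, and Atg3, the enzyme that passes LC3 to lipid, were detected on every array and had small differences in all 7 comparisons. Ulk1 ranged from -0.79 to 0.31 over all arrays, and its group means from -0.43 ± 0.25 in LPS-G1 to -0.01 ± 0.34 in C-G0. Its largest difference was -0.29, in C-G1 vs. C-G0, and the 95% interval of that difference was -0.68 to 0.09. Atg3 was printed in 10 spots per array. Its group means lay between 0.02 and 0.16, its largest difference in the 7 comparisons was 0.12, and the 95% interval of LPS-G1 vs. LPS-G0 was -0.34 to 0.35. A doubling of Atg3 thus lay outside the interval there.

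**Figure D3:**
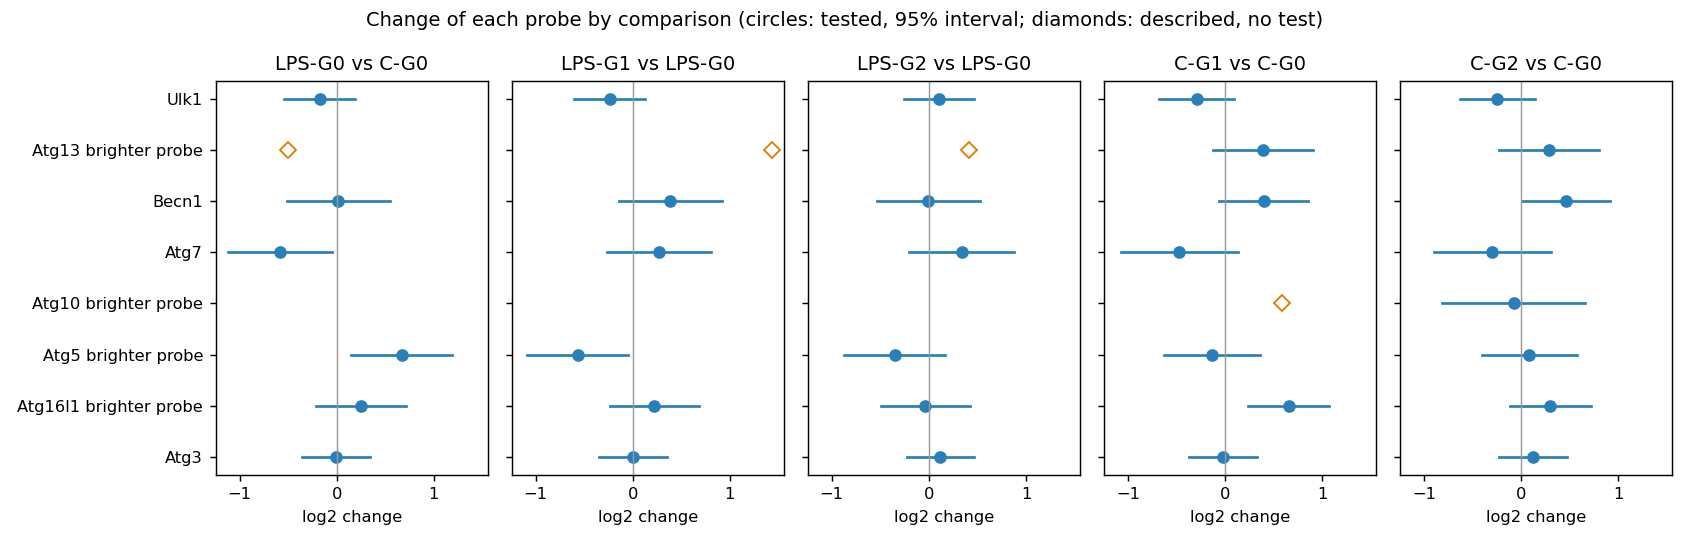
Log2 change of the 8 probes in 5 comparisons. Circles are tested probes with their 95% intervals from limma. Open diamonds are Atg13 and Atg10 where their values are described without a test. Atg10 against LPS-G0 is left out, because its LPS-G0 signal gives only a limit. Atg5 is at 0.67 in LPS-G0 vs. C-G0 and at -0.57 in LPS-G1 vs. LPS-G0, and Atg3 stays near 0 throughout.

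The probes too dim to test are given by range. Atg4b ran from -1.52 to 1.11 over the 24 arrays, with means of 0.62 ± 0.57 in C-G1 and 0.54 ± 0.40 in LPS-G1 and between -0.17 and -0.01 in the other groups, and its detection was 3 of 4 arrays in C-G1 and LPS-G1 and 1 or 2 elsewhere. Atg12 ran from -1.26 to 0.77. In LPS-G1 vs. LPS-G0 Atg4b differed by 0.71, with overlapping groups. The dimmer Atg16l1 probe correlated with the brighter one with r = 0.17 and had the same sign in 3 of 7 comparisons, as had the dimmer Atg5 probe.

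**Figure D4:**
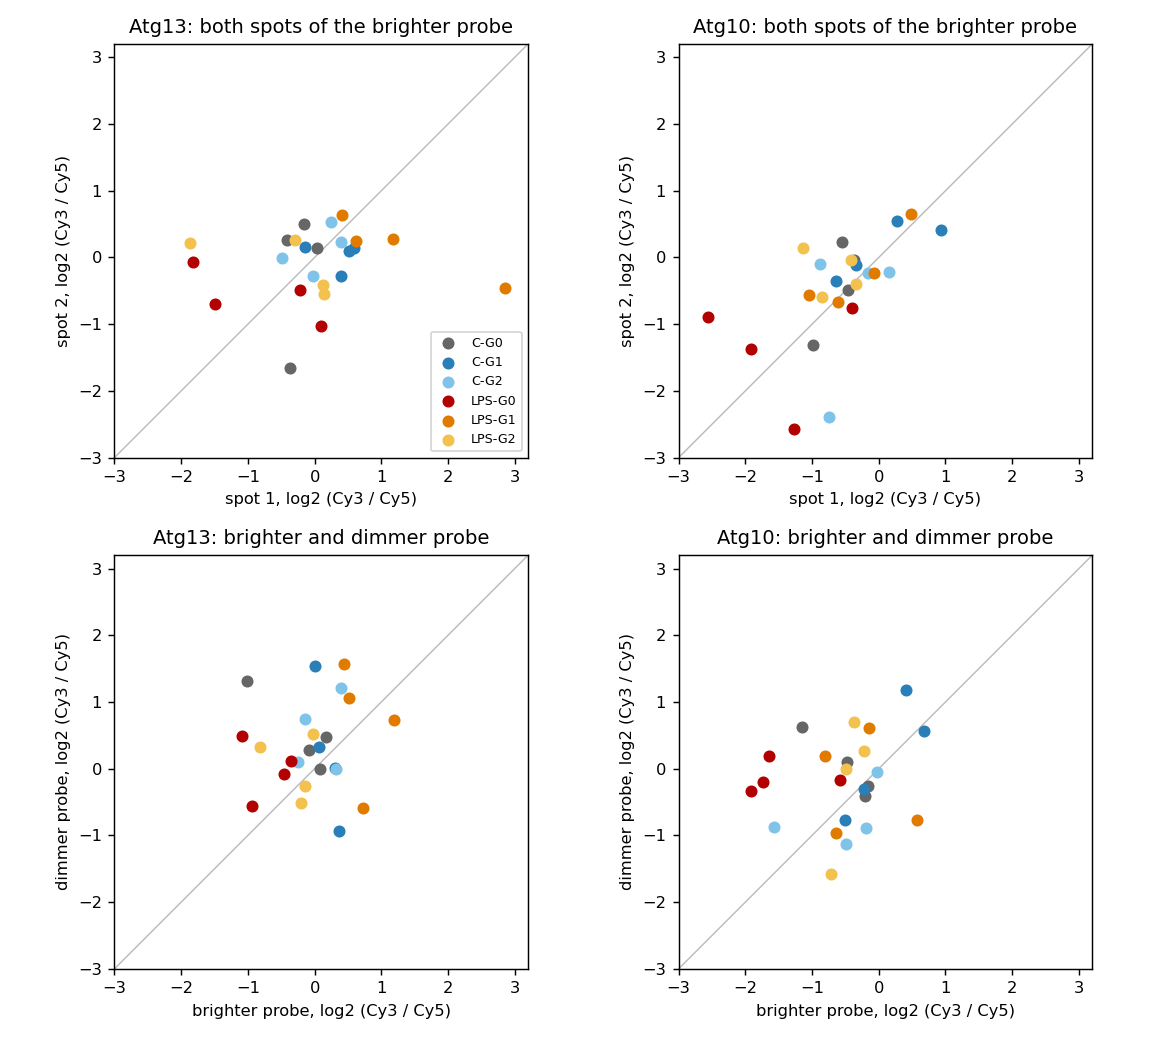
Repeat measurements of Atg13 (left) and Atg10 (right) as log2 ratios of Cy3 over Cy5, with points for the 24 arrays colored by group and the gray line marking equal values; the upper panels set both spots of the brighter probe against each other and the lower panels the brighter against the dimmer probe. For Atg13 the spots scatter without a trend (r = 0.06), with LPS-G1 replicate 3 at 2.85 and -0.47.

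Whether the LPS difference itself differed between diets was tested as an interaction for the 6 member probes other than Atg13 and Atg10. With the high-molecular-weight beta-glucan 0 of 6 passed, as did 0% of all 10708 probes, and the values ran from -0.43 (Atg16l1) to 0.74 (Atg7). At an unadjusted p under 0.05 there were 0 of 6, against 3.01% of all probes. With the low-molecular-weight beta-glucan 0 of 6 passed, again against 0% of all probes, and the values ran from -0.47 (Becn1) to 0.63 (Atg7). At an unadjusted p under 0.05 there were again 0 of 6, against 5.57%. Without LPS-G0 replicates 3 and 4 the values ran from -0.46 (Atg5) to 0.49 (Atg7) and from -0.66 (Becn1) to 0.38 (Atg7), and 0 passed. In rats on the beta-glucan diets, LPS-G1 vs. C-G1 ran from -0.18 (Atg16l1) to 0.24 (Atg5) and LPS-G2 vs. C-G2 from -0.46 (Becn1) to 0.24 (Atg5).

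Over the 24 arrays the highest r between members was 0.51, for the brighter probes of Atg13 and Atg16l1, and the lowest was -0.60, for those of Atg10 and Atg5. With group means removed these were 0.47 and -0.34. Among 7085 other probes detected on all arrays, those most like Ulk1 were Ubap1 (r = 0.75) and Cd36 (r = 0.74), and those most like Atg3 were Nras (r = 0.76) and Il1r2 (r = 0.63). The brighter Atg16l1 probe was most like a pair of predicted transcripts without a gene symbol, at r = 0.88 and 0.87, or 0.76 and 0.74 without C-G0 replicate 1. All these are descriptions over 24 arrays that share the reference, the slides and the dye balance.

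A further 55 genes of the pathway, chosen by function, gave 71 probes, of which 45 were tested in the 16-array model and 46 in the 24-array model. In LPS-G1 vs. LPS-G0, 5 of 45 probes fell and 0 rose at an adjusted p under 0.05, or 11.1%, against 8.93% of all probes. This share was near that of all probes, whose split into falls and rises is not given here. The median of the 45 probes was -0.05 and that of all probes 0.06. A probe of Atg9a, a membrane protein that brings lipid to the forming autophagosome, fell by 0.74 (adjusted p = 0.029). Another tested probe of Atg9a did not have even an unadjusted p under 0.05. Wdr45, which binds the lipid made by the Becn1 complex, fell by 0.71 (adjusted p = 0.0367). Vps18, a subunit of the complex that tethers vesicles to the lysosome, fell by 0.71 (adjusted p = 0.0329). Calcoco1 and Calcoco2, receptors that tie cargo to LC3 proteins, fell by 0.46 (adjusted p = 0.0383) and 0.67 (adjusted p = 0.0457). All 5 were detected on all 4 arrays of both groups, and their groups did not overlap. The Atg9a probe that fell ran from -0.53 to -0.21 in LPS-G1 and from 0.15 to 0.47 in LPS-G0. None of the 5 reached 2-fold. The count was 0 without LPS-G0 replicates 3 and 4, 0 when any of LPS-G0 replicates 1, 2 and 4 or LPS-G1 replicates 2, 3 and 4 was left out, and 1 with slide as a block. Of all probes, 0% to 0.0964% passed in these settings with a count of 0, and 3.25% with slide as a block.

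In the other 6 comparisons 0 of these probes passed the adjusted threshold in limma. At an unadjusted p under 0.05 there were 7 of 45 in LPS-G0 vs. C-G0 (15.6%, against 15.2% of all probes) and 4 of 45 in LPS-G2 vs. LPS-G0 (8.89%, against 8.24%). C-G1 vs. C-G0 had 13 of 46 (28.3%, against 28%) and C-G2 vs. C-G0 had 7 of 46 (15.2%, against 13.2%). LPS-G1 vs. C-G1 had 2 of 46 (4.35%, against 2.81%) and LPS-G2 vs. C-G2 had 0 of 46 (against 1.09%). These shares were near those of all probes. The genes named next are those with the smallest p and did not pass the adjusted threshold. The smallest p-values in LPS-G0 vs. C-G0 belonged to the same Atg9a probe, at 0.60, and Calcoco2, at 0.58, with adjusted p-values of 0.218 and 0.224. In C-G1 vs. C-G0 they belonged to Foxo3, a transcription factor, at -1.38 with 3 of 4 arrays detected in C-G1, and Atg4d, a protease of LC3 proteins, at -0.90, both with an adjusted p of 0.104. In C-G2 vs. C-G0 they belonged to Atg101, the partner of Atg13, at 0.99 with 2 of 4 arrays detected in C-G0, and Bcl2, which binds Becn1, at -0.59, with adjusted p-values of 0.199 and 0.233. In LPS-G2 vs. LPS-G0 they belonged to Tfe3, a transcription factor of lysosomal genes, at 0.54, and a probe of Gabarapl2, a relative of LC3, at -0.60. Both had an adjusted p of 0.597. In LPS-G1 vs. C-G1 they belonged to Pik3c3, the lipid kinase bound by Becn1, at -0.41, and a probe of Map1lc3b, which encodes LC3 itself, at 0.43. Both had an adjusted p of 0.950. In LPS-G2 vs. C-G2 both belonged to Optn, a cargo receptor, at 0.38 and 0.41 for its probes, with an adjusted p of 1.00.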

How the data were processed

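Total RNA of rat blood was hybridized to Agilent SurePrint G3 rat arrays against a common reference. The deposited log10 ratio of each spot (Cy5 over Cy3) and the processed signal intensity of each channel came from Agilent Feature Extraction with its own background subtraction and Lowess dye balance. The file headers name version 10.10.1.1 and the processing notes 10.7.3.1. The value table deposited by the authors for the series holds the same ratios (1511424 of 1511424 equal within 1e-06).

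Here the log10 ratio was turned to log2 Cy3 over Cy5. Control and outlier spots were left out and spots of a probe averaged. A probe counted as detected where at least 0.5 of its spots were flagged well above background. A probe was kept if every one of the 4 arrays in some group passed this mark in Cy3. That left 10315 probes for the model of 16 arrays (C-G0 and the LPS groups), which gave the 3 comparisons of the study, and 10708 for all 24 arrays, which gave the 4 others and both interactions. limma 3.58.1 in R 4.3.3 fitted group means with a moderated, two-sided test and Benjamini-Hochberg adjustment over all probes of the model, and the fit was tested on simulated data. Exact permutation tests used the 70 arrangements of 4 against 4 arrays. Markers were summed over the genes detected on all arrays. The number of arrays limits the precision.

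Named were all member probes, per comparison up to 5 other autophagy probes past the threshold or else the 2 with the smallest p, and the 2 probes most correlated with each member detected on all arrays. The members, the gene lists and the tests were chosen with earlier results of these data known. Alternatives covered background correction, Cy3 alone, filters, outlier spots, blocks, variance trend, array weights, models of 8 or 24 arrays, Tukey's test and single arrays left out. Reading each spot alone, and only arrays above background, were added after seeing the data.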

Additional observations from a re-analysis of the deposited data

Results flagged for a closer look

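Among the 8 tested probes in 6 groups of 4 arrays, 48 sets of values in all, 1 set held an array that stood apart from the others, while about 2.4 would be flagged by chance. The brighter Atg5 probe was at -0.76 in C-G1 replicate 2, where it was not detected, and the nearest array of the group was at -0.06.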

How the results depend on the processing

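The count of members past the adjusted threshold was 0 in all 7 comparisons and both interactions and became 1 (Atg5) with array weights in LPS-G0 vs. C-G0 and in LPS-G1 vs. LPS-G0, and with only the 8 arrays compared in LPS-G1 vs. LPS-G0. Leaving out single arrays gave 0 to 1 in LPS-G0 vs. C-G0 (0% to 11% of all probes) and in C-G1 vs. C-G0 (0% to 9%), and 0 elsewhere. For the other autophagy probes, LPS-G1 vs. LPS-G0 went from 5 (11.1%, against 8.93% of all probes) to 9 of 45 with array weights (28.2% of all probes). With slide as a block it was 1 (3.25% of all probes). At an unadjusted p under 0.05 the count was 10 (22.2%, against 26.9% of all probes). A required 2-fold change gave 0, where 103 of all 10315 probes passed. The count was also 0 with Cy3 alone, without a filter, without LPS-G0 replicates 3 and 4 and by Tukey's test, where 0% of all probes passed in each. All 24 arrays in the model gave 0 as well, against 0.028% of all probes. LPS-G0 vs. C-G0 went from 0 to 4 with array weights (11.3% of all probes), and unadjusted counts were 7, 4, 13, 7 and 2 in LPS-G0 vs. C-G0, LPS-G2 vs. LPS-G0, C-G1 vs. C-G0, C-G2 vs. C-G0 and LPS-G1 vs. C-G1. Single arrays left out gave 0 to 5 in LPS-G1 vs. LPS-G0, 0 to 3 in LPS-G0 vs. C-G0, 0 to 4 in C-G1 vs. C-G0 and 0 to 1 in C-G2 vs. C-G0. The shares of all probes moved too, from 0% to 12%, 11%, 9% and 3.32% in these comparisons, in the same order. The causes of these shifts were not tested.

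Replicate numbers were not taken as pairs. Over 7086 probes, arrays of the same number in different groups correlated with a mean r of 0.11 (-0.35 to 0.59 over 60 pairs) and others with -0.04, and 11 of 24 arrays correlated best with their own number. All arrays numbered 1 lay on slide 1 and all numbered 4 on slide 3, so number and slide cannot be told apart for these. With a replicate block, the count of other autophagy probes was 5 of 46 in C-G1 vs. C-G0 against 0 without it (all probes 569 against 3 of 10708) and 6 in LPS-G1 vs. LPS-G0 against 5 (all probes 1267 against 921 of 10315), and the count of members stayed at 0 in all comparisons.

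The brighter Atg10 probe in C-G2 vs. C-G0 changed from -0.07 to 0.016 with Cy3 alone, and to between -0.29 and 0.26 when single arrays were left out. No other tested member difference that was recomputed changed sign. The deposited series table gave the same values as the arrays. The mean over probes that pass the filter equalled the single probe, since only 1 probe of each gene passed, and agreement over arrays with both probes detected could not be computed, with 1 such array for Atg13, 2 for Atg16l1 and 0 for the others.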
